A study of Drosophila melanogaster with 6 samples.

Results

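The segment polarity genes are a group of Drosophila patterning genes, of which 10 were chosen here by name: wg, en, inv, hh, ptc, ci, gsb, gsb-n, arm and nkd. Every probe set that the array annotation names for one of them was used, whatever its value. This gave 1 probe set each for 8 of the 10 genes, out of 11982 genes covered by a probe set that names a single gene, and wg and arm were not analysed here. RNA came from whole stage 11 embryos, with 3 independent collections of wild type (WT, Oregon R) and 3 of fkh[6] mutants, which carry an allele of fork head, the gene of the only FoxA transcription factor of the fly. The labels also give Oregon R as the strain of the mutants, and both groups were age matched, raised at the same temperature and passed through an embryo sorter before extraction. The study's methods describe the sorting of mutants by the absence of GFP from a balancer chromosome for its in situ hybridizations, and do not restate it for the arrays. Each collection was hybridised to 1 Affymetrix Drosophila Genome 2.0 array, and each value is a log2 signal normalized by the authors (RMA). Because whole embryos were extracted, a transcript of a few cells is averaged with all other tissues.

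Segment polarity genes set up the repeat of fates within each body segment. In the posterior cells of a segment, the homeodomain proteins En and Inv are made, and En activates hh, whose product is a secreted ligand. Neighbouring anterior cells receive Hh through the membrane protein Ptc, which holds the signal transducer Smo in check until Hh binds, and the zinc finger protein Ci then activates targets that include ptc itself and the gene for the Wg ligand, which in turn maintains en. The Pax genes gsb and gsb-n act with Wg in the ectoderm and in neural precursors, arm encodes the β-catenin of Wg signalling and of cell junctions, and nkd encodes an inhibitor that Wg signalling induces against itself. At stage 11 these stripes are established and many of the genes are also transcribed in neuroblasts. Transcripts of hh are also known in the foregut and hindgut primordia, which are among the tissues that express fkh.

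Of the 8 measured genes, hh was the only one that passed the test, and it was lower in fkh mutants. The test was limma on all arrays, with p-values adjusted across the whole array (Benjamini-Hochberg), and a call needed an adjusted p under 0.05 together with a fold change over 1.4. By this rule 12.3% of 18769 probe sets were called (6.13% were lower in fkh and 6.19% were higher), so that 1 of 8 is a share near the background. The median log2 difference (fkh minus WT) was -0.09 over the 8 genes and -0.08 over all probe sets. At an unadjusted p under 0.05 with a fold change over 1.4, 1 of the 8 passed (hh), beside 14.7% of all probe sets. The unadjusted p of gsb-n was also under 0.05, but its fold change was 1.33. The 95% interval of the difference lay within 2-fold in either direction for all 8 genes, and within 1.4-fold for 3 of them (en, inv and gsb).

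The ligand gene hh (probe set 1626527_at, arm 3R) was at 9.25, 9.28 and 9.33 in WT replicates 1, 2 and 3, and at 8.80, 8.48 and 8.69 in fkh replicates 1, 2 and 3 (log2). All 3 fkh arrays lay below all 3 WT arrays, a separation seen in either direction for 38.6% of all probe sets and for none of the other 7 genes. The mean level fell from 9.29 ± 0.04 in WT to 8.66 ± 0.16 in the mutants (± SD of 3 arrays), which is 1.55-fold lower (95% interval 1.32-fold to 1.82-fold lower; adjusted p = 0.0065 from limma). With arrays matched by cyclic loess the log2 difference was -0.48 with an adjusted p of 0.00898, so that the fold came to lie just under the minimum and the call was lost. It was kept when any 1 array was left out, with log2 differences from -0.70 to -0.54. Fewer cells that transcribe a gene and less transcript per cell cannot be told apart in whole embryos, for hh or for any gene below.

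Beside the fall of hh, transcripts of the endoderm and hindgut also moved. Of a list of 7 such genes, chosen with earlier results of these data known, 5 were lower in fkh, 1 was higher and 1 was not called. Their median log2 difference was -0.65. Over all 11982 genes, each by its brightest probe set, 7.89% were lower and 7.80% higher, 15.7% in all, with a median of -0.07. Without WT replicate 3, and likewise with no pooling of the spread, 3 of the 7 were lower. The hindgut regulator gene byn (brachyenteron) was 2.27-fold lower (6.75 ± 0.13 in WT against 5.56 ± 0.17 in the mutants, ± SD of 3 arrays; limma adjusted p = 0.00104), and the midgut factor gene GATAe was 5.18-fold lower (8.90 ± 0.03 and 6.53 ± 0.30; adjusted p = 1.95e-04). The gut protease gene Jon44E was 36.7-fold lower and the endoderm gene srp 1.57-fold lower. The fkh mean of Jon44E (4.8) lay below the median of all values (5.39), so that its fold depends on background. The log2 difference of Jon44E, -5.2, equalled the lowest of all 11982 genes. The call of srp was lost without WT replicate 2 or WT replicate 3 (log2 differences -0.61 and -0.66). The 1 gene that was higher was fkh itself, by 1.4-fold, a call lost without WT replicate 1, WT replicate 2 or fkh replicate 1 (log2 differences 0.50, 0.44 and 0.42). The summed linear signal of the list ranged from 7591 to 7958 in WT and from 4873 to 5903 in fkh. The part of these tissues in the fall of hh was not tested.

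**Figure D1:**
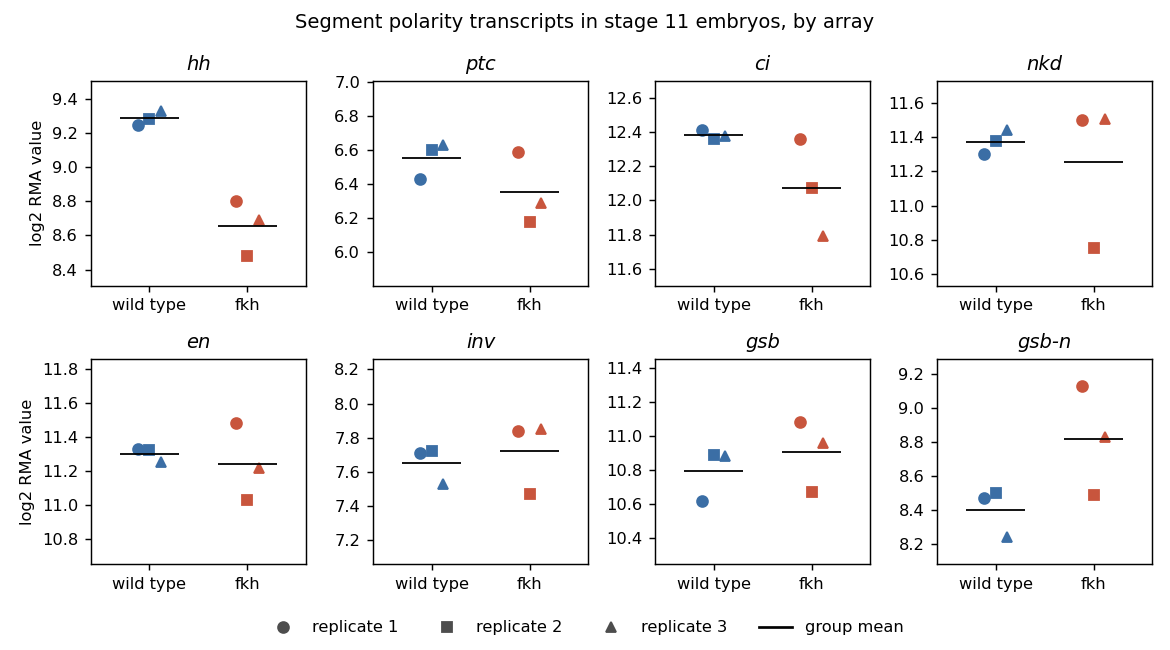
Log2 signal (RMA) of the 8 measured segment polarity genes on each array, with 1 panel per gene. Marker shapes are replicates, blue is WT, red is fkh and the bars are group means of 3 arrays; each panel spans the same height on the log2 axis. The groups are apart for hh, with WT at 9.25 to 9.33 and fkh at 8.48 to 8.80, and overlap in the other 7 panels.

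The segment polarity genes ptc and ci, which act in the reception and transduction of the Hh signal, did not pass the test. Transcripts of the receptor gene ptc (1639749_a_at, arm 2R), a target of the pathway, were at 6.43, 6.6 and 6.63 in WT and at 6.59, 6.18 and 6.29 in fkh (log2, replicates 1 to 3). Replicates 2 and 3 of fkh lay below all WT arrays and replicate 1 lay among them. The log2 difference was -0.20 (standard error 0.12, adjusted p = 0.32 from limma), with a 95% interval from -0.49 to 0.09. Transcripts of ci (1623144_at, chromosome 4), which encodes the transcription factor of the pathway, were at 12.41, 12.36 and 12.38 in WT and at 12.36, 12.07 and 11.79 in fkh. Here fkh replicate 1 was level with the WT arrays, which spanned 0.06, while the fkh arrays spanned 0.57. The log2 difference of ci was -0.31 (standard error 0.14, adjusted p = 0.188), with a 95% interval from -0.65 to 0.02. It was -0.45 without fkh replicate 1 (adjusted p = 0.0413, still under the fold minimum) and -0.17 without fkh replicate 3.

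The transcription factor genes of the posterior compartment, en and inv, showed no difference past the test. These homeodomain genes are paralogs and immediate neighbours on arm 2R in the RefSeq Release 6 gene table. Transcripts of en (1627445_s_at) were at 11.33, 11.32 and 11.25 in WT and at 11.48, 11.03 and 11.22 in fkh (log2). The fkh values lay on both sides of the WT values, and the log2 difference was -0.06 (95% interval -0.34 to 0.23, adjusted p = 0.779 from limma). Transcripts of inv (1623909_s_at) were at 7.71, 7.72 and 7.53 in WT and at 7.84, 7.47 and 7.85 in fkh, again on both sides, with a log2 difference of 0.07 (95% interval -0.23 to 0.36, adjusted p = 0.76). In Affymetrix naming, the suffix of both probe sets marks probes that match more than 1 transcript, so a part of either signal may come from a related transcript.

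Of the neighbouring Pax genes gsb and gsb-n (arm 2R), gsb-n had the largest positive difference of the 8 genes, and neither passed the test. Transcripts of gsb-n (1637031_at) were at 8.47, 8.50 and 8.24 in WT and at 9.13, 8.49 and 8.83 in fkh (log2). Replicates 1 and 3 of fkh were above all WT arrays and fkh replicate 2 was among them. The log2 difference was 0.41 (95% interval 0.02 to 0.81, unadjusted p = 0.0416 and adjusted p = 0.143 from limma). It became a call without fkh replicate 2 (log2 difference 0.58, adjusted p = 0.0298) and after cyclic loess (0.57, adjusted p = 0.047). Transcripts of gsb (1637639_at) were at 10.62, 10.89 and 10.88 in WT and at 11.08, 10.67 and 10.96 in fkh. The groups overlapped, with a log2 difference of 0.10 (95% interval -0.20 to 0.41, adjusted p = 0.636).

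The Wg antagonist gene nkd (1630361_at, arm 3L) had the widest spread of the group among fkh arrays. It was at 11.30, 11.38 and 11.44 in WT and at 11.50, 10.75 and 11.51 in fkh (log2). Replicates 1 and 3 of fkh lay just above the WT arrays and replicate 2 lay well below them. The log2 difference was -0.12 (95% interval -0.60 to 0.36, adjusted p = 0.727 from limma), and 0.13 without fkh replicate 2 (adjusted p = 0.382).

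Across the group, fkh replicate 2 was the lowest of the fkh arrays for 7 of the 8 genes, the exception being ci. Over all probe sets the same array was the lowest of the 3 in 45.8%. Against the WT mean, 7 of the 8 genes were lower in fkh replicate 2 (median log2 difference -0.29), 4 in replicate 3 (median 0.03) and 2 in replicate 1 (median 0.15), while the medians over all probe sets were -0.13, 0.00 and -0.08 in these arrays. In replicates 1, 2 and 3 of fkh, hh differed from the WT mean by -0.48, -0.81 and -0.60 and ci by -0.02, -0.31 and -0.60, so that both were below it in all 3, while gsb-n was above it in all 3. The SD among fkh arrays exceeded that among WT arrays in 8 of 8 genes and in 78.1% of all probe sets, with medians of 0.221 and 0.0886 for the group and 0.146 and 0.0751 for all probe sets (log2, fkh and WT).

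**Figure D2:**
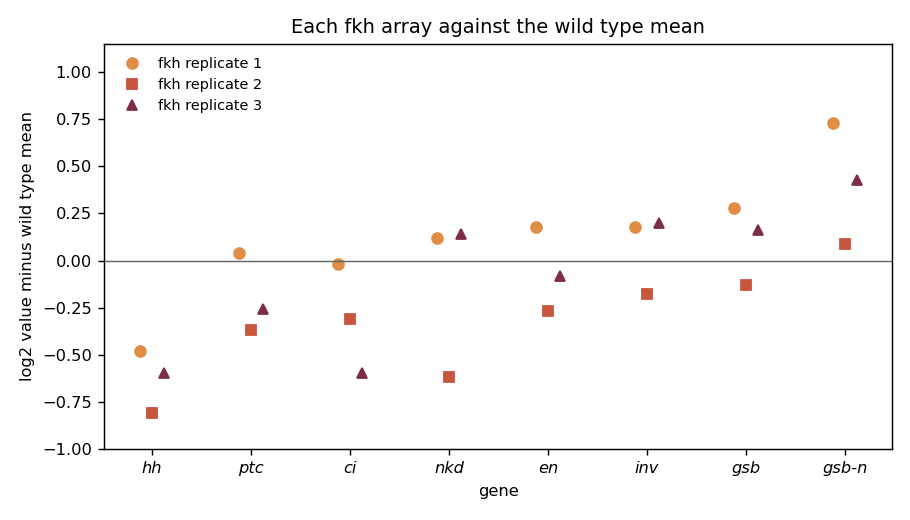
Log2 signal of each fkh array minus the mean of the 3 WT arrays, for the 8 measured genes. Marker shape and colour give the fkh replicate. For hh all 3 points lie below 0, at -0.48, -0.81 and -0.60, and fkh replicate 2 is the lowest point for every gene except ci.

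The groups also differed in transcripts that are typical of later stages. Of 13 measured genes of late muscle and cuticle, all 13 were higher in fkh, with a summed linear signal of 345 to 571 in WT and 9223 to 22840 in fkh. Examples are the muscle genes Mlp60A (80.8-fold higher) and Mlc1 (57.6-fold) and the cuticle genes Cpr51A (63.1-fold) and Gasp (40.0-fold). The other 2 probe sets that name Mlp60A had log2 differences of -0.01 and -0.12 and were not called. The WT means of the 13 genes lay between 4.03 (obst-A) and 6.17 (verm), around the median of all values (5.39), so that the folds depend on background. This list was chosen with the results of these arrays known. From these genes, an older age of the fkh collections and an effect of the mutation cannot be told apart. Among 17 measured genes listed as maternal transcripts, 1 was lower (Tl, 2.08-fold) and 16 were not called. In WT, Tl had the highest mean of the 17 (12.13), and its transcripts need not be maternal at this stage. The other probe set that names Tl was also lower (log2 difference -1.97). Beside both lists, 7.89% of all genes were lower and 7.80% higher. The anterior determinant gene bcd, which was not called, was at 8.25, 8.48 and 8.81 in WT (log2). In fkh replicates 1, 2 and 3 it was at 8.62, 9.66 and 8.27. It was highest in fkh replicate 2, which was lowest for 7 of the 8 segment polarity genes. The late genes Mlp60A (11.64, 12.17 and 10.44 in fkh), Mlc1 (10.95, 11.65 and 9.99) and Gasp (10.93, 11.46 and 10.12) were also highest there. Cpr51A (10.66, 10.8 and 11.2) was highest in fkh replicate 3. The part of either list in the values of the segment polarity genes was not tested.

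Neuroblasts and epidermis, where segment polarity genes are transcribed, were described by a list each, beside 15.7% of all genes that were called. Of 10 neuroblast genes, mira was 1.49-fold higher, dpn 1.61-fold lower and 8 were not called, with a median log2 difference of 0.03. Of 6 epidermal genes, ect was 6.75-fold higher (8.22, 8.74 and 6.00 in fkh replicates 1, 2 and 3 against 5.0, 4.97 and 4.72 in WT, log2) and 5 were not called, with a median of -0.31. The calls of dpn and ect were lost when any 1 of the WT arrays was left out, and that of ect also without fkh replicate 1 or fkh replicate 2. A second, dimmer probe set that names ect was also called higher, with a smaller log2 difference of 0.85 (means of 4.29 in WT and 5.14 in fkh). Of the other epidermal genes, crb and SoxN had log2 differences of -0.43 and -0.41 (adjusted p = 0.0101 and 0.0372 from limma), under the fold minimum. The differences of shg, ovo and grh were -0.41, -0.21 and 0.12 (adjusted p = 0.0776, 0.527 and 0.517). With no fold minimum or without fkh replicate 1, 2 epidermal genes were lower.

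Ratios within an array were used to set members against each other, for 4 pairs chosen after the values were seen. The difference hh minus en, genes transcribed in the same cells of a segment, was -2.08, -2.04 and -1.92 in WT and -2.68, -2.55 and -2.53 in fkh (log2). The groups did not overlap, and the shift was -0.57, with an SD of 0.08 in either group. The exact two-sided permutation test gave p = 0.1, the smallest value that 3 against 3 arrays allow, so no pair could pass (0.4 after adjustment over the 4 pairs). For en minus inv the shift was -0.12, for gsb-n minus gsb 0.31 and for ptc minus ci 0.11, and the groups overlapped in each (exact permutation p = 0.3, 0.2 and 0.6).

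Other genes of the Hh pathway were taken from a list of 18, of which 15 were measured. Of these, 2 were lower in fkh, none was higher and 13 were not called, with a median log2 difference of -0.16. Over all genes 7.89% were lower and 7.80% higher, with a median of -0.07. The acyltransferase gene rasp, whose product adds palmitate to Hh, was at 9.25, 9.11 and 9.36 in WT and at 8.84, 8.52 and 8.68 in fkh (log2), and was 1.47-fold lower (adjusted p = 0.0155 from limma). The co-receptor gene boi was at 9.37, 9.23 and 9.27 in WT and at 9.01, 8.66 and 8.68 in fkh, and was 1.42-fold lower (adjusted p = 0.0248). In both the groups were apart. These calls lie close to the fold minimum: that of rasp was lost in 6 of 16 alternatives and that of boi in 9, and both were lost after cyclic loess (log2 differences -0.41 and -0.36), without fkh replicate 2 (-0.48 and -0.44), without WT replicate 1 (-0.55 and -0.46) and without WT replicate 3 (-0.50 and -0.52). That of boi was also lost without WT replicate 2 (-0.53) and without fkh replicate 3 (-0.45).

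The remaining Hh pathway genes had log2 differences between -0.39 and 0.11. The second co-receptor gene ihog, a paralog of boi, had one of -0.26 (95% interval -0.51 to -0.02, adjusted p = 0.139 from limma). For disp, whose product releases Hh from the cells that make it, the difference was -0.06 (95% interval -0.28 to 0.17), and for the signal transducer gene smo -0.16 (-0.38 to 0.07). In the cytoplasmic complex that holds Ci, the kinesin-like gene cos had a difference of -0.36 (adjusted p = 0.0888) and Su(fu) one of -0.23 (adjusted p = 0.0794). For slmb, which encodes a substrate receptor in the processing of Ci, it was 0.01 (95% interval -0.32 to 0.35).

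**Figure D3:**
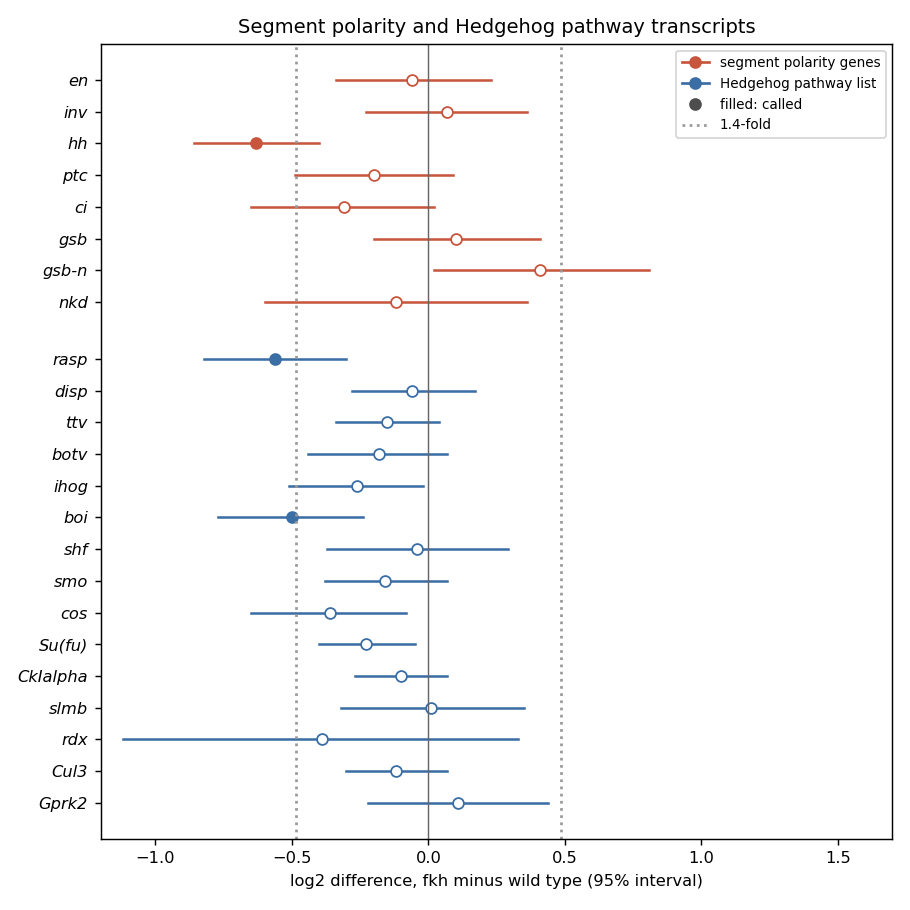
Log2 difference (fkh minus WT) with its 95% interval from limma for the 8 measured segment polarity genes (red) and 15 genes of the Hh pathway list (blue). Filled points are called, dotted lines mark 1.4-fold. The filled points are hh at -0.63, rasp at -0.56 and boi at -0.50, and most other intervals cross 0.

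From a list of 28 genes of Wg signalling 11 were measured and the others were not analysed here. Of the 11, 1 was lower (9.09%), none was higher and 10 were not called, with a median log2 difference of -0.10. Over all genes 7.89% were lower and 7.8% higher, with a median of -0.07, so that this share is near the background. The 1 that fell among the 11 was Notum. It encodes a secreted enzyme that inactivates Wg and is itself induced by Wg signalling. It was at 7.74, 7.54 and 7.73 in WT and at 7.04, 6.41 and 6.77 in fkh (log2), and was 1.91-fold lower (adjusted p = 0.00961 from limma). The groups were apart, and fkh replicate 2 was again the lowest. Without WT replicate 3 its adjusted p was 0.0506. Genes for the secretion of Wg had differences of -0.11 (por, 95% interval -0.39 to 0.18) and 0.00 (wls, -0.21 to 0.20), and the scaffold gene Axn one of -0.01 (-0.28 to 0.25). For nkd and Notum, both induced by Wg signalling in the fly, the log2 differences were thus -0.12 and -0.93, and whether these differ from each other was not tested.

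Of 16 regulators and targets that act in the same segmental pattern, 13 were measured, and 1 was lower, 1 was higher and 11 were not called. In each direction this is 7.69% of the 13, beside 7.89% lower and 7.8% higher over all genes. The T-box gene mid was at 9.20, 9.29 and 9.26 in WT and at 8.59, 8.36 and 8.19 in fkh (log2), 1.83-fold lower (adjusted p = 0.00296 from limma), with the groups apart. The gene higher in fkh was sr, which specifies tendon cells at segment borders: it was at 3.8, 4.45 and 3.69 in WT and at 6.01, 6.72 and 5.62 in fkh, 4.39-fold higher (adjusted p = 0.00496). Its WT signals lie below the median of all values, so this fold depends on background. Pair-rule genes that act upstream of the segment polarity genes were not called: prd had a log2 difference of -0.37 (95% interval -0.70 to -0.04, adjusted p = 0.125), slp2 one of 0.13 (-0.23 to 0.50), odd one of 0.13 (-0.08 to 0.34) and opa one of -0.06 (-0.28 to 0.16).

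Among 4 junction proteins that act with Arm at adherens junctions, 1 was higher and none was lower. Vinc, the vinculin gene, was at 6.36, 6.6 and 6.50 in WT and at 7.39, 8.02 and 7.48 in fkh (log2), 2.21-fold higher (adjusted p = 0.00561 from limma), with the groups apart. The E-cadherin gene shg had a log2 difference of -0.41 (95% interval -0.71 to -0.10, adjusted p = 0.0776) and alpha-Cat one of -0.13 (-0.41 to 0.15). In all, 41 genes of these 4 lists were measured, of which 4 were lower and 2 higher, or 14.6%, beside 15.7% of all genes.

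**Figure D4:**
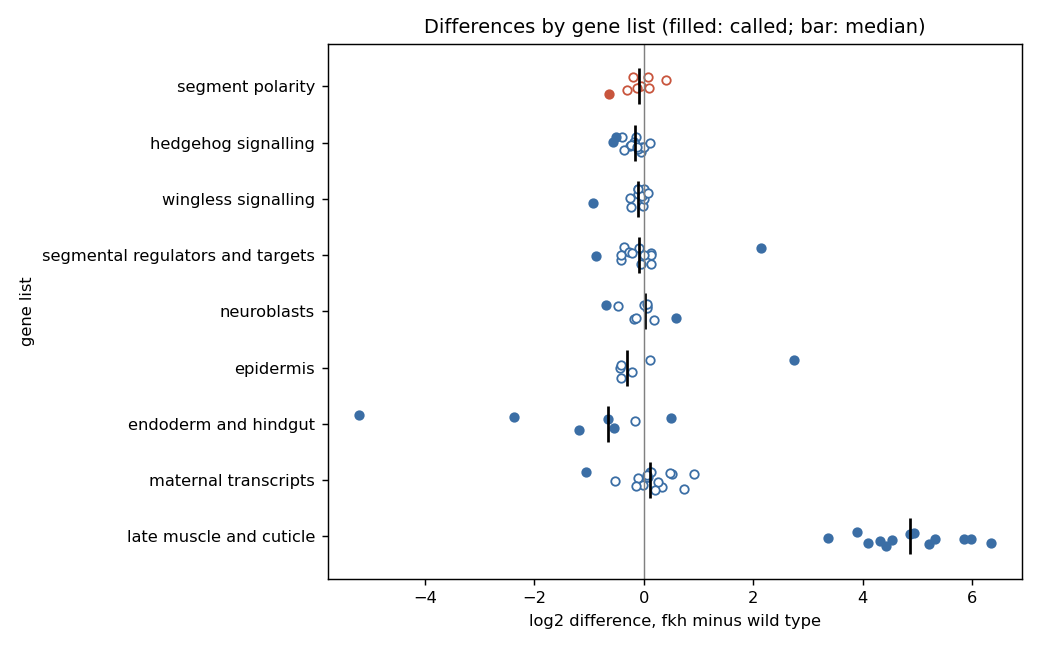
Log2 differences (fkh minus WT) of the genes of each list except the junction partners of Arm, with the 8 segment polarity genes in red. Filled points are called, open points are not, the bars are medians, and vertical scatter within a list has no meaning. The segment polarity genes lie between -0.63 and 0.41, while the late muscle and cuticle genes lie between 3.36 and 6.34.

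The genes whose profile over the 6 arrays was most like that of hh or en were sought among 8010 probe sets of a single gene with an above-median level. Likeness was the mean absolute difference between deviations from each probe set's own mean (log2). For hh these were CG4565 (0.0216), CG18048 (0.0303) and CG6479 (0.0311). CG4565 was at 6.69, 6.70 and 6.75 in WT and at 6.23, 5.97 and 6.08 in fkh, a log2 difference of -0.62. For en they were CG8289 (0.0173), CG7988 (0.0240) and az2 (0.0282), whose log2 differences of -0.04, -0.03 and -0.10 were not called. With 6 arrays and 8010 probe sets, close profiles are a description only.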

How the data were processed

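Affymetrix Drosophila Genome 2.0 arrays were scanned and normalized by the authors with RMA in Partek (versions not given in the sources used here), and the deposited values are on the log2 scale, 1 column for each of 6 arrays; medians ranged from 5.36 to 5.45. No filter was applied, and the number of arrays limits the precision. Probe sets were named from the platform annotation by gene ID with RefSeq symbols (Release 6): 13647 named 1 gene, 402 several and 4720 none, and a listed gene was represented by its brightest probe set. The genotypes were compared by limma 3.58.1 (R 4.3.3) over all probe sets. On simulated data the call rule found 29.6% of log2 changes of 0.5, 95.4% of 1 and 99.4% of 2, so that small changes can be missed. The simulation changed far fewer probe sets than were called in the data and gave both groups the same spread. Its percentages are therefore not the detection rates of this comparison. Members and lists were chosen with earlier results of these data known. Besides all members and fkh, the rule named up to 4 called genes of each list per direction and the 3 most alike probe sets of hh and en; other listed genes were named for their role after values were seen. Replicate numbers are not stated to pair arrays (correlations of deviations between same-numbered arrays 0.072, 0.0727 and -0.0785). No sequences were used here.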

Additional observations from a re-analysis of the deposited data

How the results depend on the processing

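Alternatives were a variance trend, no pooling of the spread, 3 scalings, a filter on dim probe sets, a replicate block, other thresholds and leaving out each array. The call of hh was kept in 14 of 16 alternatives and lost after cyclic loess and at a fold minimum of 2, where 0 segment polarity genes were lower. After cyclic loess 1 (gsb-n) was higher. None of the other 6 measured genes was called in any alternative, but the sign of en and nkd turned without fkh replicate 2 (0.05 and 0.13), and that of en also after cyclic loess (0.01), while inv came to 0.00 without WT replicate 3 or fkh replicate 3. With 1 array left out, 0 to 1 segment polarity genes were higher and 1 was lower in each case. Over all probe sets, 1162 were higher and 1151 lower. The counts were 406 higher and 538 lower with no pooling of the spread, 690 lower after cyclic loess, 1795 lower with no fold minimum, 683 higher and 264 lower at a fold minimum of 2, and 668 to 1522 higher and 705 to 1355 lower with 1 array left out. Rises were 50.2% of the calls, 65.3% after cyclic loess, 56.4% with ribosomal protein scaling and 42.7% with arrays centred on the median. Of the 41 pathway and segmental genes, 2 were higher and 4 lower. With no pooling 0 were higher and 1 was lower, after cyclic loess 2 were lower, at a fold minimum of 2 none (0) was lower, and with 1 array left out 1 to 6 were lower and 2 higher. With no pooling of the spread, Notum, rasp, boi, sr, Vinc, dpn, srp, ect and fkh also lost their calls. The causes were not tested. Replicate numbers are not stated to pair the samples. With the replicate block 1168 probe sets were higher and 1069 lower, and hh had a log2 difference of -0.63 (adjusted p = 0.0191 from limma).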
